A study of Mus musculus with 55 samples.

Results

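Genes of ducts and other simple epithelia, 9 in all, were followed through bulk RNA-seq of mouse islets: Sox9, Krt19, Krt7, Spp1, Cftr, Muc1, Tff1, Tff2 and Tff3. They were taken by name and not by a cut on their values, though earlier results of these data were known. All 9 are among the 47937 genes in the count table. The 16 bulk libraries, from a series of 55 samples, came from male C57B6/J mice of 3 genotypes at 8 and 25 weeks of age. Wild-type (WT) islets gave 3 libraries at each age. Islets heterozygous for Eed (HET) gave 3 libraries at 8 weeks and 2 at 25 weeks. Islets labelled Eed -/- (βEedKO, marked KO in the plots) gave 3 libraries at 8 weeks and 2 at 25 weeks. In βEedKO mice a Cre transgene under the rat insulin promoter deletes floxed Eed in β cells, so the other cells of the islet keep the gene. RNA was taken from whole islets. Each library held islets of 1 or 2 animals, except that each βEedKO library at 25 weeks held islets of at least 4. The labels do not say how samples with the same replicate number are related, and p-values measure the spread between these libraries.

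Pancreatic ducts are lined by a simple epithelium that carries the acinar enzymes to the gut. Sox9 is the transcription factor of pancreatic progenitors and adult duct cells, Krt19 and Krt7 form its intermediate filaments, Cftr is its apical chloride channel, Spp1 (osteopontin) and Muc1 are secreted and apical glycoproteins, and the trefoil factors Tff1, Tff2 and Tff3 are small peptides that mucous epithelia secrete with mucins. Eed is the core subunit of Polycomb repressive complex 2, which places the repressive mark H3K27me3. Chromatin that carries H3K27me3 and the start-site mark H3K4me3 together is called bivalent.

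The libraries held 4645393 to 22925359 counted reads. Eed itself ranged from 19.2 to 33.1 CPM (counts scaled to library size with TMM factors) in WT, from 16.3 to 20.5 in HET and from 13.4 to 15.6 in βEedKO. Expression was also summed over short lists of markers for other cells. The 10 acinar markers summed to between 11548 CPM (βEedKO replicate 3 at 25 weeks) and 376820 CPM (βEedKO replicate 2 at 25 weeks), so the extremes of the 16 libraries were the 2 libraries of one group. The 5 markers of gut epithelium (Cdx1, Fabp2, Guca2a, Cdh17 and Lypd8, a list chosen after the values were seen) summed to 203 CPM in WT replicate 1 at 8 weeks, 305 CPM in βEedKO replicate 4 at 8 weeks and 163 CPM in βEedKO replicate 3 at 25 weeks. The same sum was 24 CPM in WT replicate 2 at 25 weeks and at most 7.78 CPM in the others. Cdx1, the intestinal transcription factor among them, was 1.96, 1.45 and 3.87 CPM in those 3 libraries and at most 0.218 CPM elsewhere. Between βEedKO and WT at 25 weeks 0 of 10 acinar and 0 of 5 gut markers were called, with 9 and 5 of them positive in log2 fold change. For endothelial and Schwann cells 0 of 6 and 0 of 5 markers were called, and for α, δ and PP cells 1 of 6. Over all genes 6.6% were called. The 7 β cell markers summed to 11925 and 14967 CPM in βEedKO islets at 25 weeks and to between 110700 and 193810 CPM in all other libraries. Since CPM are shares of a bulk library, fewer cells of a type and less RNA per cell cannot be told apart.

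The chromatin at the start of these genes came from 1 segmentation of WT islets into states of 200 bp. The upstream sequences of 3 genes are shown because their start sites differ in state while their genes are counted in the same islets. Spp1 starts in state K, taken here as bivalent, Cftr in the bivalent state L and Muc1 in a flanking active state. Each sequence is the 250 bases before the start on GRCm38.p6 from RefSeq, 5′ to 3′, with each CpG dinucleotide in capitals. The Spp1 window is chr5:104434861-104435110, the Cftr window chr6:18170437-18170686 and the Muc1 window chr3:89228806-89229055, all on the plus strand, and none overlaps an annotated exon.
Spp1: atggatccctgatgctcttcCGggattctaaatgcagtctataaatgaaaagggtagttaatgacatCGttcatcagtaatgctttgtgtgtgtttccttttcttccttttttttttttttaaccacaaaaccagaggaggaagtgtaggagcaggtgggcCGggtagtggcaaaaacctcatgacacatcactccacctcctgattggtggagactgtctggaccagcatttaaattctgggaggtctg
Cftr: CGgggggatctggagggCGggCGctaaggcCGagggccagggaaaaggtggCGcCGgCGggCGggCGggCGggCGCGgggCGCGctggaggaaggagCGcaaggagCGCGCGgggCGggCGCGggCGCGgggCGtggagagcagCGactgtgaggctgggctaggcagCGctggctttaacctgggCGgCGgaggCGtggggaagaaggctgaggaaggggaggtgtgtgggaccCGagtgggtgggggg
Muc1: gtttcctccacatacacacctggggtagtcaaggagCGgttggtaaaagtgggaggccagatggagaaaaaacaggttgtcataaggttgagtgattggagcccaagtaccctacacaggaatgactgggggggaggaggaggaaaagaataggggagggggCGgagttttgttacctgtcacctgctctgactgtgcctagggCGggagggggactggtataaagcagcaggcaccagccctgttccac
The Cftr window held 30 CpG with a GC content of 76.4%, and 94.8% of 32851 RefSeq promoter windows of this length held no more CpG. The Spp1 and Muc1 windows held 3 CpG each, at a GC content of 43.6% and 54.8%, and 37.8% of windows held no more. The median window held 6. The ratio of observed to expected CpG was 1.06 for Cftr, 0.255 for Spp1 and 0.176 for Muc1. The starts of Spp1 and Cftr thus lay in windows far apart in CpG content. RefSeq windows were matched for 4 of the 9 genes, the fourth being Krt7. Sox9, Krt19, Tff1, Tff2 and Tff3 were not matched.

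In the segmentation, the start site of Sox9 lay in state L, bivalent with high H3K4me3, and those of Spp1 and Tff3 lay in state K, taken here as bivalent. The paper's text names states L and M as bivalent and does not name K, where the start of the insulin gene Ins2 also lies. The start of Cftr was also in state L. Tff1 and Tff2 started in state O, a Polycomb-repressed state. Krt7 started in state D, a state of the transcribed region near active starts, Muc1 in state C, which flanks active starts, and Krt19 in state X, a quiescent state. A bivalent or Polycomb-repressed state (K to O) thus covered the start of 6 of the 9 genes (66.7%), beside 30.9% of 42903 counted genes with a state. Spp1 and Tff3 are among the 6 only through state K, where 2.46% of these counted genes start. Counting the starts of all annotated transcripts gave 8 of 9, since Krt19 has 3 transcript starts in states K, O and X and Muc1 has 3 in C, K and X. Krt7 alone had no such start: its 5 starts lay in A and D. Muc1 enters this wider count only through state K. The share of all genes was not taken for the wider count, so the 8 of 9 has no background beside it.

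The states around the starts differed in extent. At Sox9, bivalent states ran from 4600 bp upstream to more than 5000 bp downstream, and state M, bivalent with high H3K27me3, covered 71.5% of the gene body. State K ran from 2600 bp upstream to 2400 bp downstream of the Spp1 start. At Cftr the bivalent stretch was shorter, from 1200 bp upstream to 1400 bp downstream. The bodies of the trefoil genes were mostly in state O, 74.3% of Tff1, 64.4% of Tff2 and 71.3% of Tff3. At Krt7 active states ran from 600 to 4800 bp downstream of the start, and at Muc1 they ran from 1600 bp upstream to the start. The segmentation is 1 map with no replicates and no level, and it covers WT islets as a whole.

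**Figure D1:**
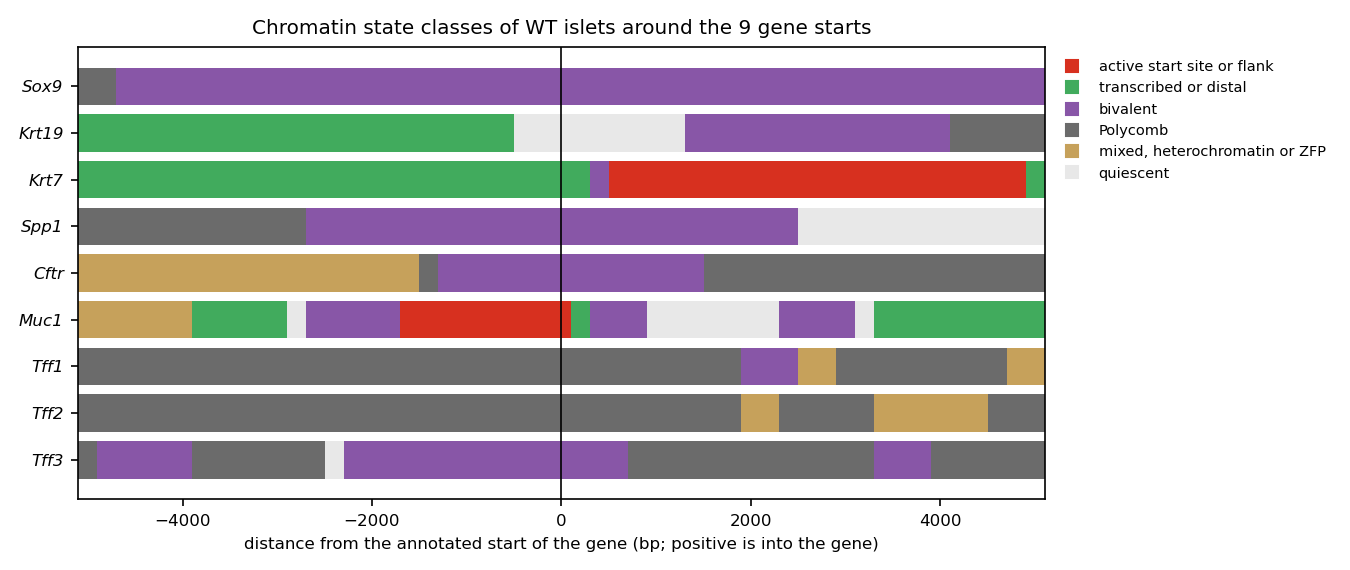
Chromatin state classes in WT islets within 5000 bp of the annotated start of each of the 9 genes, by distance from the start in bp along the direction of transcription, with colour giving the class of each 200 bp bin. Sox9 and Spp1 sit in broad bivalent stretches (state K counted as bivalent), Tff1 and Tff2 in Polycomb-repressed chromatin, and Krt7 and Muc1 next to active states.

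Sox9 (ENSMUSG00000000567.5) lies on chromosome 11 from 112782224 to 112787760 on the plus strand. At 25 weeks its level was 21.1 and 26.9 CPM in the βEedKO libraries, against 1.53, 1.13 and 5.87 CPM in WT and 0.980 and 1.57 CPM in HET. At 8 weeks it was 6.83, 7.92 and 8.56 CPM in βEedKO, 9.57, 5.17 and 3.49 CPM in WT and 2.58, 1.60 and 1.31 CPM in HET. The 2 βEedKO libraries at 25 weeks were the highest of all 16, and the βEedKO libraries at 8 weeks lay inside the WT range and above all HET libraries. The means at 25 weeks were 24 ± 4.13 (SD, n = 2) in βEedKO and 2.84 ± 2.63 (n = 3) in WT, a ratio of 8.44. The paper, by contrast, reports seeing no reactivation in βEedKO of early progenitor markers, Sox9 among them, with the data not shown. It does not say by what measure. In edgeR's quasi-likelihood test the log2 fold change was 2.98 ± 0.62 (SE), with an adjusted p of 0.0189. With the replicate numbers as a block it was 4.16 (edgeR, adjusted p = 0.0218). To that value WT replicate 4, at 5.87 CPM, adds nothing, since no βEedKO library at 25 weeks has its number. The call was lost without WT replicate 2 or 3 or either βEedKO library at 25 weeks, with log2 fold changes of 2.56 to 3.12 and adjusted p of 0.0522 to 0.107. Without the 3 libraries with gut markers it was 2.80 (adjusted p = 0.119). Mesenchymal markers were also higher in βEedKO islets at 25 weeks, where they summed to 372 and 496 CPM against 165 to 243 CPM in WT. Of these 6 markers 3 were called (Col1a1, Col1a2 and Dcn), beside 4.58% of all genes called higher. These 3 start in state M, where 27.1% of tested genes were called higher.

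Krt19, the acidic keratin of duct cells (ENSMUSG00000020911.14, chromosome 11 from 100140810 to 100148665, minus strand), was more uneven within groups. At 25 weeks it reached 22.9 and 83 CPM in βEedKO, against 5.01, 1.96 and 5.57 CPM in WT and 1.91 and 1.69 CPM in HET. Values at 8 weeks were 29.6, 79.6 and 19.8 CPM in βEedKO, 69.8, 15.6 and 16.1 CPM in WT and 5.78, 2.48 and 2.89 CPM in HET. The 3 highest libraries, WT replicate 1 and βEedKO replicate 4 at 8 weeks and βEedKO replicate 3 at 25 weeks, were the 3 libraries with the highest sum of gut epithelial markers. At 25 weeks the groups did not overlap, the ratio of means was 12.7, and the log2 fold change was 3.62 ± 0.86 (edgeR, adjusted p = 0.0334). With the replicate block it was 3.81 and no longer called (adjusted p = 0.133). Without those 3 libraries, which leaves 1 βEedKO library at 25 weeks, whose spread is taken from the other groups, it was 2.43 (adjusted p = 0.0521). The call was also lost without any 1 of the 3 WT libraries at 25 weeks (adjusted p of 0.0733 to 0.140) and without βEedKO replicate 3 (log2 fold change 2.43, adjusted p = 0.257).

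Krt7, a basic keratin of simple epithelia (ENSMUSG00000023039.16, chromosome 15 from 101411043 to 101430313, plus strand), went the other way in value. It was 104 and 125 CPM in βEedKO at 25 weeks, against 218, 188 and 168 CPM in WT and 191 and 181 CPM in HET. The values at 8 weeks were 233, 215 and 254 CPM in βEedKO, 248, 264 and 234 CPM in WT and 222, 149 and 250 CPM in HET. The βEedKO libraries at 25 weeks were the lowest of the 16, and elsewhere the groups of an age overlapped. The ratio of the means at 25 weeks was 0.597, but the log2 fold change of -0.80 ± 0.22 missed the threshold in edgeR (adjusted p = 0.0588). DESeq2 called it lower (adjusted p = 0.0015). The β cell markers, low in the same 2 libraries, had 6 of 7 called lower, beside 2.02% of all genes. Krt7 was also the steadiest of the 9, at 104 to 264 CPM in 16 libraries.

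Spp1, a secreted phosphoglycoprotein that binds integrins and Cd44 and is a marker of duct cells and of some macrophages (ENSMUSG00000029304.14, chromosome 5 from 104435118 to 104441050, plus strand), differed most steadily. At 25 weeks it was 467 and 315 CPM in βEedKO, 58.6, 28.4 and 55.3 CPM in WT and 29.8 and 50.8 CPM in HET. For the age of 8 weeks it was 164, 250 and 297 CPM in βEedKO, 179, 70.5 and 63.8 CPM in WT and 35.4, 59.2 and 43.7 CPM in HET. Both βEedKO libraries at 25 weeks exceeded every other library, and at 8 weeks only WT replicate 1 reached into the βEedKO range. Means at 25 weeks were 391 ± 108 (n = 2) in βEedKO and 47.5 ± 16.6 (n = 3) in WT. The log2 fold change was 3.0 ± 0.49 (edgeR, adjusted p = 0.00537), and 3.18 with the replicate block (adjusted p = 0.0346). It was called in all 23 alternatives of samples, scaling, control and test that were tried, including the fit without the 3 libraries with gut markers (3.26, adjusted p = 0.0178). Macrophage markers summed to 126 and 416 CPM in βEedKO and 86.7 to 169 CPM in WT at 25 weeks, with 0 of 6 called and 6 of 6 positive in log2 fold change.

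**Figure D2:**
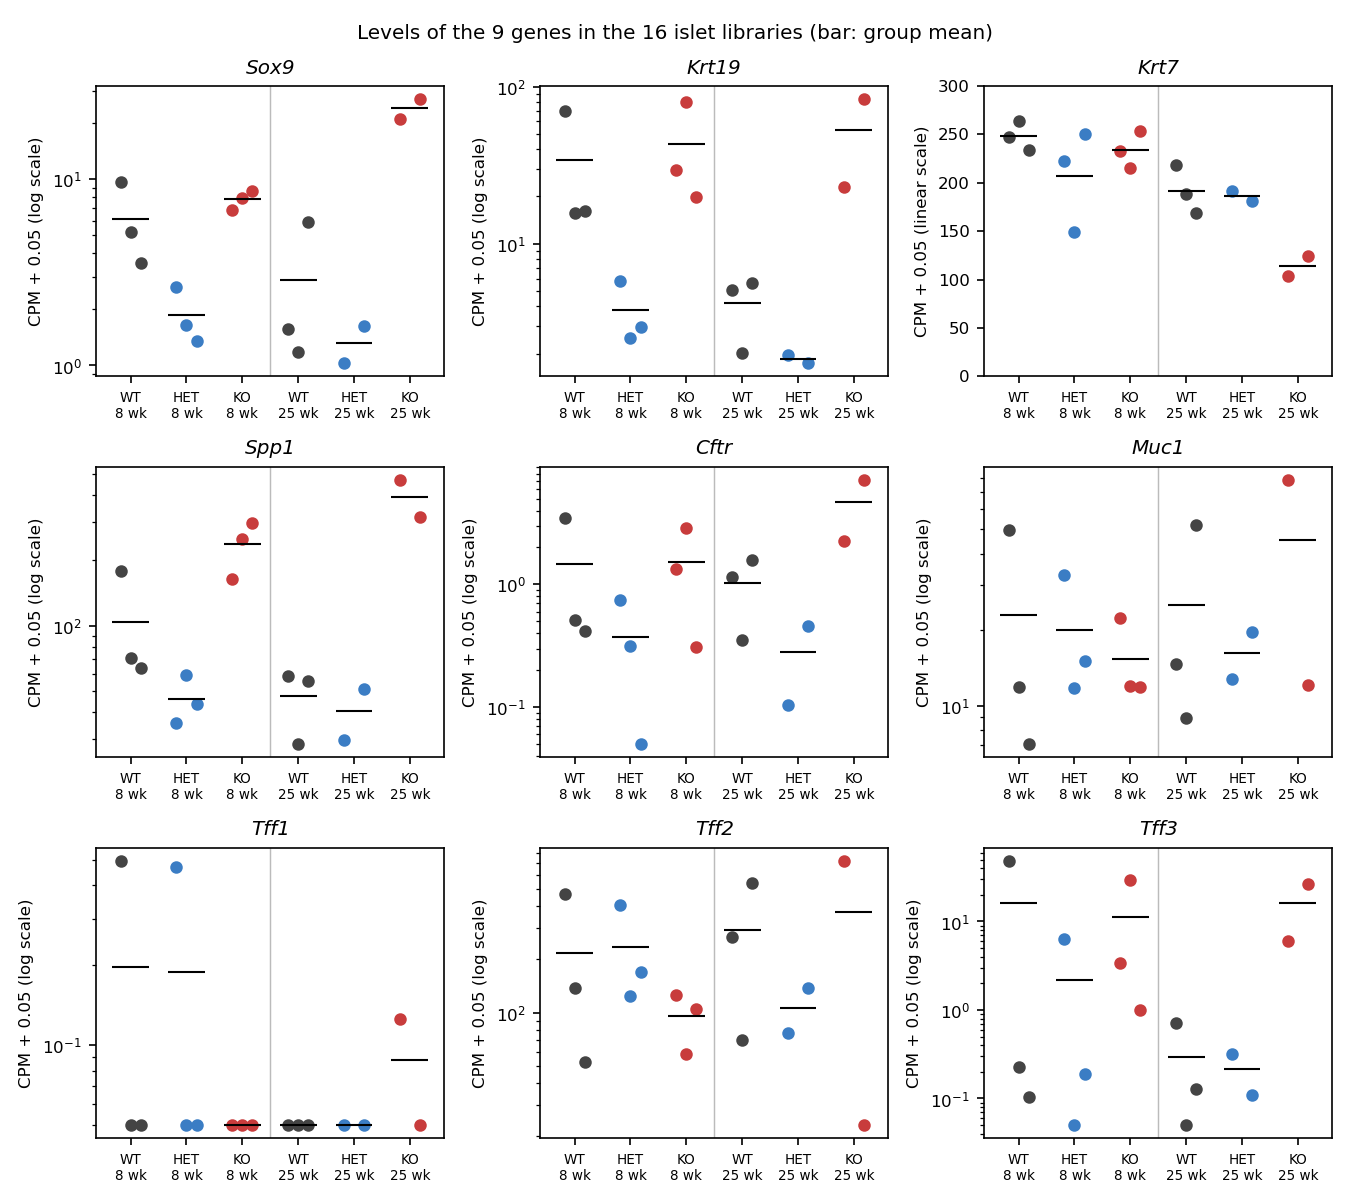
Expression of each of the 9 genes in the 16 libraries, 1 panel a gene, as TMM-scaled CPM with 0.05 added on a log axis (Krt7 on a linear axis from 0), with points for libraries and bars for group means in WT, HET and KO islets at 8 and 25 weeks. The 2 KO libraries at 25 weeks lie above all others for Sox9 and Spp1 and below all others for Krt7, while Muc1 and Tff2 spread widely within groups.

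Cftr (ENSMUSG00000041301.15, chromosome 6 from 18170687 to 18322768, plus strand) was low everywhere. At 25 weeks it was 2.21 and 7.02 CPM in βEedKO (29 and 174 reads), and 1.09, 0.301 and 1.55 CPM in WT. At 8 weeks it was 1.28, 2.86 and 0.259 CPM in βEedKO and 3.42, 0.465 and 0.370 CPM in WT, and in HET it did not exceed 0.696 CPM at either age. The βEedKO and WT libraries did not overlap at 25 weeks, yet the log2 fold change of 2.19 ± 1.13 did not pass the test (edgeR, adjusted p = 0.317). Its highest libraries were, in order, βEedKO replicate 3 at 25 weeks, WT replicate 1 at 8 weeks and βEedKO replicate 4 at 8 weeks, again those with gut markers.

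Muc1, a transmembrane mucin of apical membranes (ENSMUSG00000042784.9, chromosome 3 from 89229057 to 89233381, plus strand), showed no order by genotype. At 25 weeks it was 78.1 and 12.1 CPM in βEedKO, 14.6, 8.87 and 51.7 CPM in WT and 12.7 and 19.6 CPM in HET. At 8 weeks it was 22.1, 11.9 and 11.8 CPM in βEedKO, 49.4, 11.8 and 6.99 CPM in WT and 32.9, 11.7 and 14.9 CPM in HET. The libraries of an age overlapped in every comparison of genotypes. The log2 fold change at 25 weeks was 0.80 ± 0.96 (edgeR, adjusted p = 0.713).

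Tff2, the trefoil peptide of gastric neck and pancreatic mucous secretion (ENSMUSG00000024028.7, chromosome 17 from 31141049 to 31144282, minus strand), spanned the widest absolute range. At 25 weeks it was 720 and 23.0 CPM in the 2 βEedKO libraries, the highest and the lowest of all 16. The other values at 25 weeks were 268, 70.3 and 542 CPM in WT and 76.3 and 137 CPM in HET. Values at 8 weeks were 125, 58.0 and 105 CPM in βEedKO, 467, 138 and 52.2 CPM in WT and 408, 124 and 169 CPM in HET. No genotype stood apart at either age, and the log2 fold change at 25 weeks was 0.31 ± 1.20 (edgeR, adjusted p = 0.928).

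Tff3, the trefoil peptide of intestinal goblet cells (ENSMUSG00000024029.4, chromosome 17 from 31125306 to 31129646, minus strand), was close to 0 in most libraries. At 25 weeks WT libraries held 3, 0 and 1 reads, whereas the βEedKO libraries held 78 and 655 reads (5.93 and 26.4 CPM). In the younger islets it was 3.32, 29.4 and 0.951 CPM in βEedKO, 47.9, 0.174 and 0.0529 CPM in WT, and 6.26, 0 and 0.138 CPM in HET. The groups at 25 weeks did not overlap, but with so few WT reads the fitted log2 fold change of 6.67 ± 2.71 depends on the prior count and was not called (edgeR, adjusted p = 0.194). The 3 highest libraries were those with gut markers, and without WT replicate 1 at 8 weeks, which sets part of the shared spread, Tff3 was called (6.66, adjusted p = 0.0412).

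Tff1, the trefoil peptide of the gastric surface (ENSMUSG00000024032.6, chromosome 17 from 31161395 to 31165277, minus strand), was too low to test. It held 7 reads in WT replicate 1 at 8 weeks, 6 in HET replicate 1 at 8 weeks, 1 in βEedKO replicate 2 at 25 weeks and 0 in the other 13 libraries. A count of 0 allows up to 3 reads, which is 0.121 to 0.654 CPM across the 16 libraries and covers counting error only. The 3 trefoil genes lie side by side within 39972 bp on chromosome 17, with 1 other counted gene, Gm15318, in that stretch. Of the 3 highest libraries of Tff2 and the 3 highest of Tff3, 1 was the same, WT replicate 1 at 8 weeks.

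Per kilobase of exon, the order of mean levels in WT islets at 8 weeks was Tff2 (375 CPM per kb), Spp1 (63.3), Krt7 (35.3), Tff3 (32.6), Krt19 (18.2), Muc1 (9.69), Sox9 (1.47), Tff1 (0.210) and Cftr (0.183). In βEedKO islets at 25 weeks it was Tff2 (636 CPM per kb), Spp1 (237), Tff3 (32.8), Krt19 (28.5), Muc1 (19.2), Krt7 (16.2), Sox9 (5.80), Cftr (0.594) and Tff1 (0.0541). Krt7 stood in the third place in one and the sixth in the other, while Tff2 and Spp1 led in both. The SD of Tff2, Tff3, Krt19 and Muc1 was close to or above the mean in both groups, so the order among Krt7, Tff3, Krt19 and Muc1, and the lead of Tff2 over Spp1, do not exceed the spread between libraries. These 2 groups differ in age as well as in genotype. In WT islets at 25 weeks the level was 502 CPM per kb for Tff2, 28.8 for Spp1, 27.2 for Krt7, 10.7 for Muc1, 2.25 for Krt19 and 0.494 for Tff3.

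Among the 9 genes, 8 passed the filter on low counts. At 25 weeks 3 of these 8, Sox9, Krt19 and Spp1, were called higher in βEedKO than in WT and none was called lower. Of all 18685 genes tested, 6.6% were called, 4.58% higher (856 genes) and 2.02% lower (378 genes). Scaled by library size alone, 803 genes were higher and 79 lower, with the median of all genes shifted to 0.26, and the same 3 of the 9 genes were called. At an unadjusted p under 0.05 were 5 of the 8, beside 20.3% of all genes. The median log2 fold change of the 8 was 2.58 and that of all genes 0.03. The 2 groups did not overlap for 6 of the 9, with Sox9, Krt19, Spp1, Cftr and Tff3 higher and Krt7 lower, where 24.7% of all genes were higher and 15.9% lower in this sense.

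At 8 weeks none of the 8 was called in edgeR, beside 0.434% of all genes (0.428% higher and 0.00535% lower), and 1 of them, Spp1, had an unadjusted p under 0.05, beside 7.87%. Spp1 was at 1.20 ± 0.44 on the log2 scale (adjusted p = 0.470), with a ratio of means of 2.27. Sox9 was at 0.37 ± 0.54, Krt19 at 0.38 ± 0.72 and Krt7 at -0.09 ± 0.19. DESeq2 called none of the 7 genes for which it gave an adjusted p. For all 9 genes the βEedKO and WT libraries overlapped at this age, where 6.54% of all genes were wholly higher and 4.86% wholly lower.

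Whether the difference between βEedKO and WT itself changed with age was tested in the same fit. None of the 8 passed, beside 0.198% of all genes (0.091% in the higher and 0.107% in the lower direction), and 4 had an unadjusted p under 0.05, beside 7.76%. The change was 2.61 ± 0.82 for Sox9 (edgeR, adjusted p = 0.365), 3.25 ± 1.11 for Krt19 (adjusted p = 0.429), 1.79 ± 0.64 for Spp1 (adjusted p = 0.471) and -0.72 ± 0.29 for Krt7 (adjusted p = 0.567), on the log2 scale. DESeq2 gave adjusted p of 0.0913 for Sox9, 0.0986 for Krt19 and 0.203 for Spp1. From 8 to 25 weeks the mean of Krt19 changed by a ratio of 0.123 in WT and 1.23 in βEedKO. The change for Krt19 thus lay mostly in lower WT values at 25 weeks. For Sox9 the ratio was 0.468 in WT and 3.09 in βEedKO, and for Spp1 it was 0.455 and 1.65. The calls at 25 weeks and the absence of calls at 8 weeks therefore do not show a difference between the ages.

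HET islets were compared with the same WT libraries in a fit of all 16. At 8 weeks Sox9, Krt19 and Spp1 were lower in every HET library than in any WT library, as 9.09% of all genes were (10.3% were wholly higher). None of the 9 was wholly higher. Some markers of other cells were also lower in these libraries, but most were not. The acinar, β cell, macrophage and endothelial sums overlapped between HET and WT, the last at 270 to 394 and 226 to 296 CPM. The summed list of simple epithelia, which includes Epcam, also overlapped, at 1753 to 2658 CPM in HET and 1622 to 5365 CPM in WT. The markers of α, δ and PP cells summed to 13776, 10993 and 13977 CPM in HET and 16462, 31030 and 35713 CPM in WT, and the epithelial adhesion gene Epcam was 126, 102 and 113 CPM in HET and 159, 434 and 420 CPM in WT. Their part in the difference between HET and WT was not tested. The ratio of HET to WT means was 0.301 for Sox9, 0.110 for Krt19 and 0.442 for Spp1. None of the 8 was called by edgeR, and 0% of all genes were. At an unadjusted p under 0.05 were these 3, beside 14.6% of all genes. The log2 fold changes were -1.73 ± 0.55 for Sox9 (adjusted p = 0.246), -3.19 ± 0.75 for Krt19 (adjusted p = 0.212) and -1.18 ± 0.42 for Spp1 (adjusted p = 0.264). DESeq2 called Krt19 lower (adjusted p = 0.00144), with Sox9 at 0.0541 and Spp1 at 0.0972. At 25 weeks none was called (0% of all genes), none had an unadjusted p under 0.05 (1.12% of all genes), DESeq2 called 3 genes of all tested, and Krt19 alone was lower in both HET libraries than in any WT library, beside 7.06% of all genes (8.91% were wholly higher).

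Set against HET, the βEedKO islets were higher for the same 3 genes at both ages. At 25 weeks the log2 fold change was 4.23 ± 0.73 for Sox9 (edgeR, adjusted p = 0.00385), 4.88 ± 1.00 for Krt19 (adjusted p = 0.00982) and 3.28 ± 0.55 for Spp1 (adjusted p = 0.0033), where 8.36% of all genes were called, 5.41% higher and 2.95% lower. At this age 5 of the 9 (Sox9, Krt19, Spp1, Cftr and Tff3) were wholly above HET and Krt7 was wholly below, beside 33.9% and 27.9% of all genes. At 8 weeks it was 2.09 ± 0.55 for Sox9 (adjusted p = 0.0478), 3.54 ± 0.76 for Krt19 (adjusted p = 0.025) and 2.36 ± 0.43 for Spp1 (adjusted p = 0.0128), where 4.74% of all genes were called, 3.6% higher and 1.14% lower. These 3 genes were wholly above HET, beside 12.7% of all genes. These comparisons share βEedKO libraries with those against WT. At 8 weeks none of the 3 was called against WT. The ratio of βEedKO to WT means was then 1.28 for Sox9, 1.27 for Krt19 and 2.27 for Spp1. That of HET to WT was 0.30, 0.11 and 0.44. For Sox9 and Krt19 the gap to HET at 8 weeks thus lay mostly in low HET values. With the replicate block the 3 calls at 8 weeks were lost, with adjusted p of 0.383 for Sox9, 0.430 for Krt19 and 0.380 for Spp1. At 25 weeks the blocked adjusted p was 0.0497 for Sox9, 0.146 for Krt19 and 0.0719 for Spp1.

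**Figure D3:**
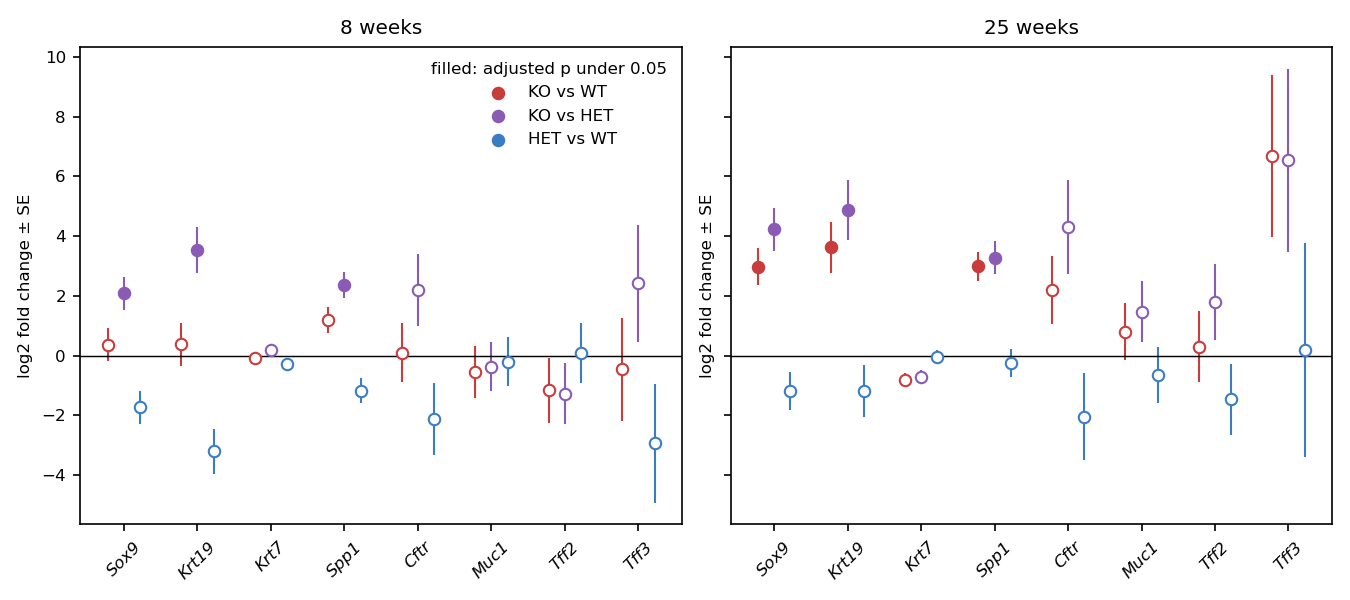
Log2 fold change with its standard error for 8 of the 9 genes in 6 comparisons, KO with WT, KO with HET and HET with WT at 8 and 25 weeks, with filled symbols for an adjusted p under 0.05 in edgeR. Sox9, Krt19 and Spp1 are filled for KO against WT at 25 weeks and for KO against HET at both ages, and no symbol is filled for HET against WT.

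The spread within groups followed the marker sums for some of the genes. Deviations of log2(CPM + 0.5) from the group means were correlated over the 16 libraries with the summed level of 8 marker lists, 64 relations in all, with permutation of libraries within groups. Tff2 followed the 10 acinar markers with Pearson's r of 0.994 (p = 0.000193, the smallest that 5184 arrangements can give, and adjusted p = 0.0124) and Spearman's rho of 0.997. Without the 2 libraries with the farthest acinar sums, both βEedKO libraries at 25 weeks, r was 0.988. Muc1 followed the same sum with r of 0.948 (permutation p = 0.000386, adjusted p = 0.0124), a rho of 0.918 (permutation p = 0.00116, adjusted p = 0.037) and 0.974 without those 2 libraries. So the libraries with high Tff2 and Muc1 were those with high acinar enzymes, in every genotype.

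For the others no relation passed the adjustment. Tff3 had r of 0.789 with the sum of gut epithelial markers (permutation p = 0.00598, adjusted p = 0.105), or 0.668 without WT replicate 1 and βEedKO replicate 4 at 8 weeks. Krt19 had r of 0.835 with the same sum (permutation p = 0.0151, adjusted p = 0.193) and Cftr 0.721 (adjusted p = 0.284 by permutation). The gut list was chosen after the values were seen. The p-values with its sum, here or as a covariate, do not allow for that choice. Spp1 had r of 0.534 with acinar (adjusted p = 0.436 by permutation) and 0.344 with macrophage markers (adjusted p = 0.596 by permutation). Sox9 had r of -0.32 with mesenchymal markers (adjusted p = 0.596 by permutation), and Krt7 had r of 0.585 with β cell markers (adjusted p = 0.105 by permutation). For Sox9 r with the acinar sum was 0.499 (adjusted p = 0.477 by permutation), rising to 0.883 without the 2 βEedKO libraries at 25 weeks. With the acinar sum as a covariate, Sox9 was at 3.29 (edgeR, adjusted p = 0.0132) and Spp1 at 3.07 (adjusted p = 0.00259) for βEedKO against WT at 25 weeks, and Krt19 at 3.74 (adjusted p = 0.0507). With the gut sum as a covariate Krt19 was at 2.54 (adjusted p = 0.0242), Spp1 at 2.88 (adjusted p = 0.0118) and Sox9 at 2.83 (adjusted p = 0.053).

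**Figure D4:**
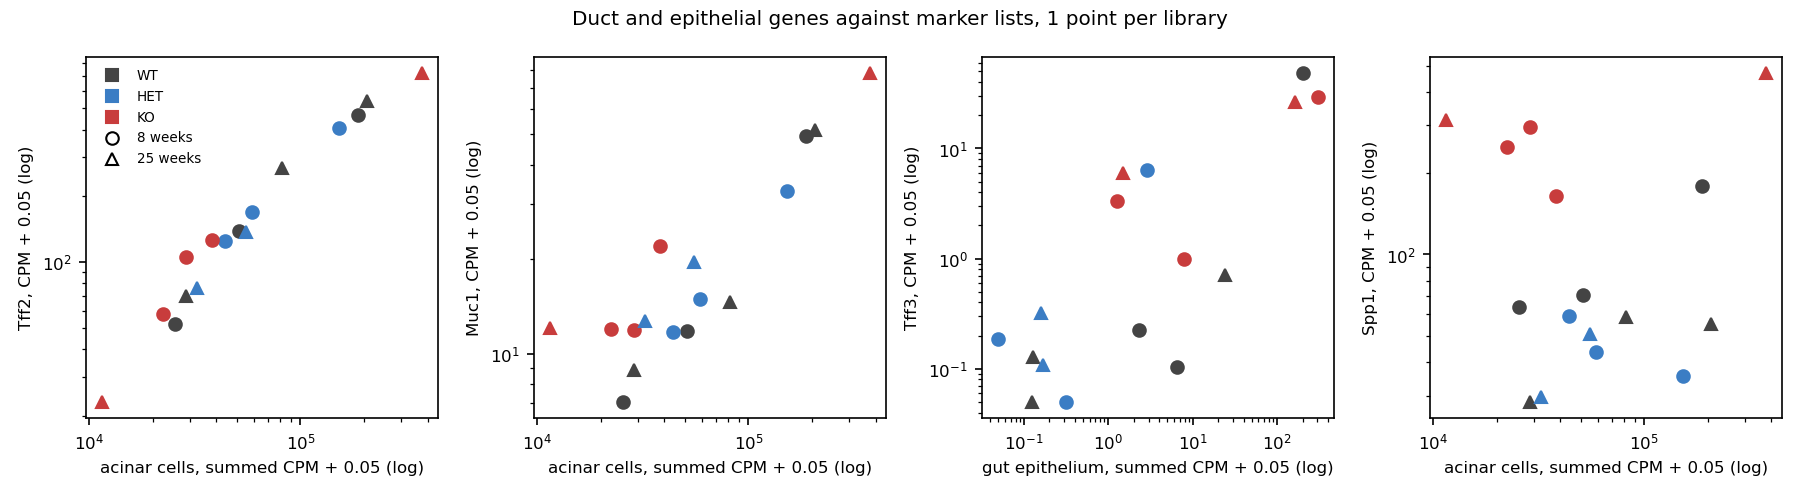
CPM of Tff2, Muc1 and Spp1 against the summed CPM of acinar markers, and of Tff3 against that of gut epithelial markers, on log axes, with 1 point a library (circles 8 weeks, triangles 25 weeks, colours by genotype). Tff2 and Muc1 rise with the acinar sum in every genotype, the KO points for Spp1 at 25 weeks lie above the rest at both ends of the acinar sum, and 3 libraries hold both high gut markers and high Tff3.

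The genes also fell into groups by which libraries were high, given here as descriptions over libraries that share depth and makeup. Deviations from group means had r of 0.936 between Muc1 and Tff2, 0.939 between Krt19 and Cftr, 0.904 between Krt19 and Tff3 and 0.863 between Cftr and Tff3. Over the 16 libraries, the genes most like Tff2 were the acinar enzymes Prss2 (r = 0.986), Pnlip (0.986) and Cela1 (0.984). Those most like Krt7 were Scgn (0.919), Tspan7 (0.914) and the prohormone convertase Pcsk2 (0.908). The nearest to Tff3 were Cdhr2 (0.945), Entpd8 (0.932) and H2-T3 (0.931), and to Muc1 they were Hpn (0.953), P2rx1 (0.952) and Chst2 (0.950). Sox9 was nearest to Lrrc8e (0.956), Sdc1 (0.950) and Frmd6 (0.935), Krt19 to Tmem238l (0.937), Sdc1 (0.929) and Galnt3 (0.929), Spp1 to Jpt1 (0.952), Zfp503 (0.944) and Shisa4 (0.939), and Cftr to Pof1b (0.926), Itgb4 (0.917) and Mgat4a (0.911). The syndecan gene Sdc1 was thus near both Sox9 and Krt19.

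Other duct genes were looked at as a list of 15, all tested. At 25 weeks 1 rose in βEedKO islets and none fell, the median log2 fold change was 0.61 and 12 of 15 were positive. Of all genes 4.58% were called higher, so a count of 1 in 15 is near that background. Summed, the list was at 367 and 408 CPM in βEedKO and at 271 to 309 CPM in WT at this age. The sums did not overlap, and 24.7% of all single genes were wholly higher in this way. The gene that rose was Car2, the cytosolic carbonic anhydrase behind bicarbonate secretion, at 24.9 and 19.1 CPM in βEedKO against 1.74, 0.15 and 1.00 CPM in WT. Its log2 fold change was 4.6 ± 1.00 (edgeR, adjusted p = 0.023), and with the replicate block it was 5.05 and not called (adjusted p = 0.0881). The most abundant of the others were not called: the membrane glycoprotein gene Prom1 at -0.20, the tetraspanin gene Tspan8 at 0.59 and the doublecortin-domain gene Dcdc2a at -0.60. At 8 weeks none of the 15 was called and the median was -0.32.

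Broader epithelial genes were read as 3 further lists. Of 15 genes of simple epithelia none was called at 25 weeks, 11 were positive and the median was 0.69. The keratin partners Krt8 and Krt18 were at -0.41 and 0.10, the cadherin gene Cdh1 at -0.18 and the claudin gene Cldn4 at 1.07. Of 11 genes of stratified epithelia only 3 passed the filter and none was called. Of 15 gastric and mucous genes 11 were tested, with 1 called, which fell, beside 2.02% of all genes called lower. The gene that fell was Muc4, a membrane mucin, at 5.47 and 15.9 CPM in βEedKO against 51.6, 137 and 115 CPM in WT. Its log2 fold change was -3.30 ± 0.81 (edgeR, adjusted p = 0.0377). The median of these 11 was 4.22 with 10 positive. Among them Fcgbp, Muc13 and Pigr were highest in the 3 libraries with gut markers, for instance Muc13 at 96.3 CPM in WT replicate 1 and 84.6 CPM in βEedKO replicate 4 at 8 weeks and 127 CPM in βEedKO replicate 3 at 25 weeks.

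The partners and cartilage targets of Sox9 were listed as 13 genes, of which 8 were tested. At 25 weeks 2 rose, both encoding chains of collagen IX, and the median was 1.84. Of all genes 4.58% were called higher. Most of the list starts in state L or M, where 13.9% and 27.1% of tested genes were called higher, with medians of 0.923 and 2.08. The count and median are thus not read as particular to genes linked to Sox9. Col9a2 was 25.4 and 27.1 CPM in βEedKO against 8.28, 7.37 and 6.11 CPM in WT (1.81 ± 0.22, edgeR, adjusted p = 0.00137). Col9a3 was 2.89 and 2.42 CPM against 0.436, 0.15 and 0.541 CPM in WT (2.78 ± 0.69, adjusted p = 0.0397), and was not called with the replicate block (adjusted p = 0.0695). Col9a2 also rose at 8 weeks, at 25.9, 22.4 and 22.5 CPM in βEedKO against 7.16, 5.75 and 6.88 CPM in WT (1.84 ± 0.20, adjusted p = 0.00403), though not with the block (adjusted p = 0.176). It stood at 3.72 to 7.64 CPM in the 5 HET libraries, so all 5 βEedKO libraries were above all 11 others. Mesenchymal markers were higher in βEedKO than in WT at both ages. At 8 weeks they summed to 271, 265 and 190 CPM in βEedKO and 164, 155 and 157 CPM in WT, wholly higher, with 0 of 6 called and 6 of 6 positive. Their part in Col9a2 and Col9a3 was not tested. The Col9a2 start lay in state M and that of Col9a3 in state O.

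The integrins and other genes linked to Spp1 were listed as 11, of which 7 were tested and none called at 25 weeks. The integrin genes Itgb1, Itgav and Itgb5 were at 0.24, -1.24 and -0.11, and the receptor gene Cd44 was at 0.56. The median was 0.24. Ibsp and Mepe, which encode related phosphoproteins of bone, held 0 reads in every library.

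**Figure D5:**
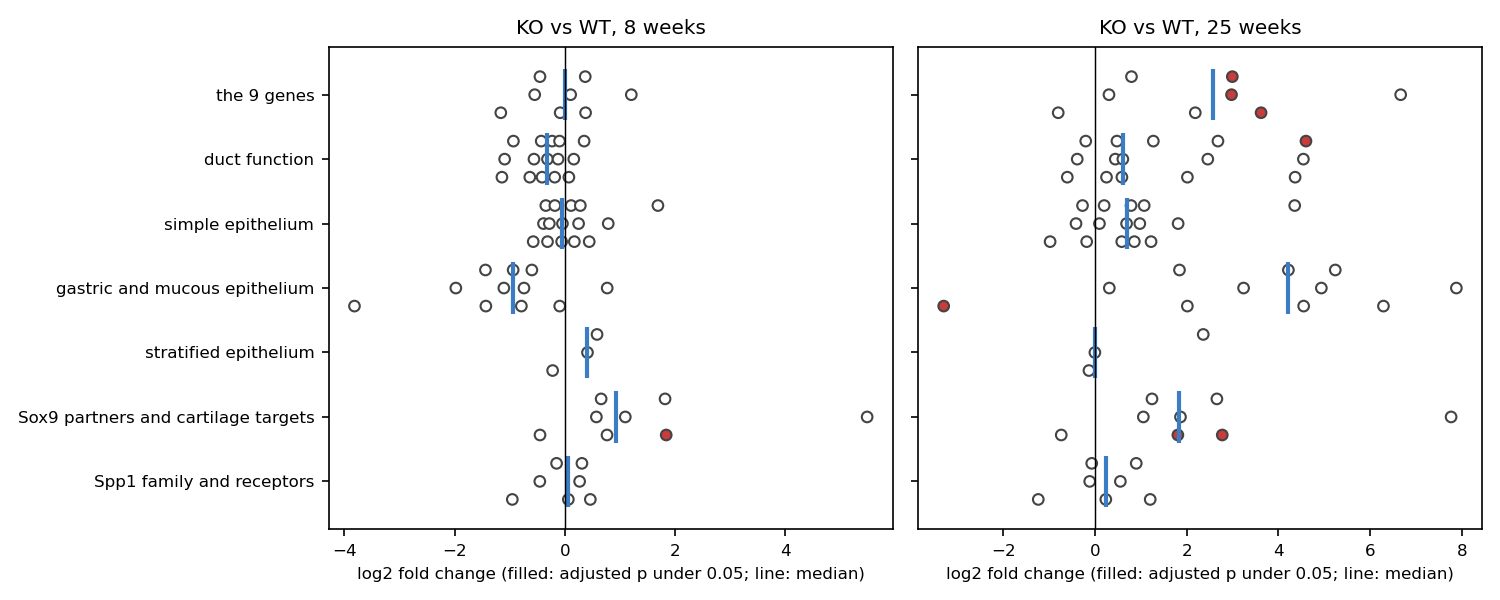
Log2 fold change of KO against WT at 8 and 25 weeks for the tested genes of each list, with 1 point a gene, filled where the adjusted p was under 0.05 in edgeR, and a line at the median of the list. Filled points are few outside the 9 genes: Car2, Muc4, Col9a2 and Col9a3 at 25 weeks, and Col9a2 at 8 weeks, among the epithelial and Sox9 lists.

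Read by start-site state, 13.9% of 2512 tested genes in state L were called higher in βEedKO at 25 weeks, 4.04% of 445 in state K, 27.1% of 902 in state M and 2.34% of those in state O. The share was 2.41% in state X, 0.973% in state C and 3.53% in state D. Sox9 was thus 1 of 348 called genes in state L and Spp1 1 of 18 in state K, while Krt19, called higher, started in state X. Cftr in state L and Tff3 in state K were not called.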

How the data were processed

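Bulk RNA-seq of mouse islets was analysed in 16 libraries of 6 groups, together with 1 chromatin segmentation of WT islets. Values deposited by the authors for expression are unnormalised read counts, made from paired reads with TopHat2 2.0.13 on GRCm38 and featureCounts (Subread 1.5.0-p1) on Gencode M9 gene models. Whether counting used strand is not given in the sources used here. The segmentation was deposited as letters of EpicSeg states in bins of 200 bp on autosomes, with replicates averaged and no level. The count table had 0 unused count columns. The single-cell, human and ChIP-seq data are not used here.

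The main test was that of edgeR 4.0.16 in R 4.3.3 (TMM factors, filterByExpr by group, quasi-likelihood F test, Benjamini-Hochberg adjustment, threshold of 0.05 on the adjusted p), with DESeq2 1.42.0 as an alternative. The 4 groups of WT and βEedKO (11 libraries, 18685 genes) shared 1 fit with a common biological coefficient of variation of 0.456, and all 6 groups (18828 genes) another for HET. Standard errors were obtained as |log2 fold change| over √F. CPM were scaled with the TMM factors of all 16 libraries. Positions, exon lengths and symbols came from a later Gencode release of the same build, which matched 47224 of the 47937 identifiers and left 713 unmatched. Total counts ran from 4645393 to 22925359 per library, and floors of 3 reads cover counting error only.

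The 9 genes, the lists and the alternatives were chosen with earlier results of these data known. Named genes of a list are those called, or otherwise the most highly expressed, by a rule set with the lists. The gut list, the fits without the 3 libraries that hold its markers and the 2 fits with a marker sum as covariate were added after these values were seen, as were the alternatives for HET and the comparison of βEedKO with HET. Cdx1 and Epcam were named after their values were seen.

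Replicate numbers are shared between genotypes. WT and βEedKO libraries of the same number deviated together from their group means, with a correlation of 0.457 in replicate 1 and 0.163 in replicate 4 (8 weeks), and of 0.176 in replicate 2 and 0.255 in replicate 3 (25 weeks). Some libraries of different number did so too, such as WT replicate 3 and βEedKO replicate 5 at 8 weeks (0.450), and with 2 βEedKO libraries at 25 weeks the deviations mirror each other, so the pairing rests on these values and not on the labels. In the blocked fits a library with no other of its number and age adds nothing to the comparison. Between βEedKO and WT that leaves replicates 2 and 3 at 25 weeks and replicates 1 and 4 at 8 weeks. Blocked and unblocked values thus rest on different libraries. The blocked value is given where it changes a call. No 2 libraries of a group were alike within counting noise, with a lowest chi-square per degree of freedom of 31.0. On simulated counts with 199 changed genes tested, the 25-week comparison (17077 genes) gave 70 calls, 2 of them false, and recovered 34.2% of the changes, or 75% of those with a log2 fold change of 3. The simulated counts were drawn for each gene alone around its WT mean, without the differences in acinar or gut markers between libraries and without pairs. The false count therefore does not cover calls that such differences could produce.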

Additional observations from a re-analysis of the deposited data

How the results depend on the processing

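Spp1 was higher in βEedKO than in WT at 25 weeks and called in all 23 alternatives, with log2 fold changes of 2.66 to 3.26 where 1 replicate or the 3 libraries with gut markers were left out. Sox9 and Krt19 kept their direction in all 23, but each lost its call in some. For βEedKO against HET at 8 weeks, the calls were lost in 12 of 20 alternatives for Sox9, 5 for Krt19 and 3 for Spp1, and at 25 weeks in 2, 4 and 2. The cause was not tested. Tff1, with 14 reads in 16 libraries, was too low to test, and Tff3 held 3, 0 and 1 reads in WT at 25 weeks.

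The number of genes called at 25 weeks (1234) was 2088 with DESeq2, 2649 with WT and HET pooled as control, 361 without the 3 libraries with gut markers, 705 with the gut sum as covariate, and 391 to 1610 without 1 replicate. Of the 9 genes 1 was called without those 3 libraries and 1 to 4 without 1 replicate. At 8 weeks (81) it was 137 without a filter, 0 with the replicate block, 393 with DESeq2, 893 with HET as control, 503 with pooled controls, 1 without those 3 libraries, 52 with the acinar sum and 18 to 135 without 1 replicate. Of the 9 genes 3 were called with HET as control, 1 with pooled controls and 0 without any 1 replicate. For the change with age (37) it was 13 by library size alone, 73 without a filter, 2 with the block, 341 with DESeq2, 90 with 6 groups in 1 fit, 204 with pooled controls, 0 without those 3 libraries, 14 with the gut sum and 10 to 40 without 1 replicate. For HET at 8 weeks (0) it was 5 without a filter, 413 with DESeq2 and 0 to 601 without 1 replicate, the highest without WT replicate 1, where Krt19 was at -2.16 (edgeR, adjusted p = 0.0736). For HET at 25 weeks (0) it was 3 with DESeq2 and 0 without any 1 replicate.

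Directions turned only for uncalled log2 fold changes. For βEedKO against WT at 8 weeks, Krt7 was 0.11 by library size, 0.18 with HET and 0.040 with pooled controls. Tff3 was 1.08 with the block, 2.43 with HET, 0.31 with pooled controls, 4.14 without the 3 libraries, 0.48 with the acinar sum, 0.56 with the gut sum and -2.87 to 6.55 without 1 replicate. Muc1 was 0.84 and Tff2 0.26 without the 3 libraries, and 0.63 and 0.40 with the acinar sum. Without 1 replicate Muc1 ran from -0.99 to 0.68, Cftr from -0.82 to 1.79 and Krt19 from -0.45 to 1.42. At 25 weeks Tff2 was -0.13 with the block, -0.64 with the acinar sum and -3.74 to 1.25 without 1 replicate, and Muc1 -1.14 to 1.91. For HET at 25 weeks Sox9 was 0.33 with the block and Spp1 -0.66 to 0.11 without 1 replicate. The block changed no other call than those given with the results.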

Other observations

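HET replicate 2 at 8 weeks stood apart for some duct genes, chosen after their values were seen. Slc4a4, the sodium bicarbonate cotransporter gene, was at 96.6 CPM there and at most 26.5 CPM in the other 15 libraries. Aqp1 was at 105 CPM there, with 73.8 CPM in βEedKO replicate 2 at 25 weeks as the next highest, and the Sox9 partner Sox6 was at 23.0 CPM with 14.6 CPM as the next highest. In the same library Sox9 was at 1.60 CPM, Krt19 at 2.48 CPM and Cftr at 0.266 CPM, so these 3 genes were not high with them. Markers of other cells were also high in this library. Its mesenchymal sum was 319 CPM, against 116 and 131 CPM in the other HET libraries at 8 weeks, with Dcn at 83 CPM against 6.82 and 5.78 CPM, and its endothelial sum of 394 CPM was the highest of the 9 libraries at 8 weeks.

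The simple keratin genes Krt8 and Krt18 and the adhesion gene Epcam varied by library within WT and βEedKO at 8 weeks. Epcam was 434 and 420 CPM in WT replicates 3 and 4 and 558 and 528 CPM in βEedKO replicates 4 and 5, against 159 CPM in WT replicate 1 and 146 CPM in βEedKO replicate 1. Krt8 was 1646 and 1566 CPM in the same WT libraries and 1319 and 1286 CPM in the same βEedKO libraries, against 312 CPM in WT replicate 1 and 177 CPM in βEedKO replicate 1. The 3 HET libraries did not split in this way: Epcam was low in all, at 126, 102 and 113 CPM, and Krt8 was 1064, 617 and 751 CPM, between the levels of the other genotypes. Krt7 did not show this split, with 215 to 264 CPM in these 6 libraries.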
